A study of Homo sapiens with 2 samples.

Results

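m6A is a methyl mark on the N6 position of adenosine in messenger RNA. The genes described here are its writers, which deposit the mark, and its erasers, which remove it. They are METTL3, METTL14, WTAP, VIRMA, ZC3H13, RBM15, CBLL1 and METTL16 among the writers, and FTO and ALKBH5 among the erasers. They were chosen by gene symbol, and all 10 were among the 28038 genes of the deposited table. The study sequenced poly(A) RNA from OVCAR-3, a long-established line of human ovarian carcinoma cells. It has 1 library from cells overexpressing IGF2BP3 and 1 library from control cells given a blank viral vector. IGF2BP3 binds transcripts that carry m6A and is thus a reader of the mark. The comparison shows the messenger RNA level of the writer and eraser genes upstream of IGF2BP3 when it is overexpressed. With neither group replicated, no p-value is given, and every ratio is between these 2 libraries. The promoter of the vector, and whether a clone or a pool of cells was used, is not stated.

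METTL3 and METTL14 form a heterodimer in which METTL3 holds the active site and METTL14 helps to bind the RNA. A larger set of subunits built around WTAP and VIRMA places this dimer on nascent transcripts, and readers such as the IGF2BP and YTH proteins then bind the methylated sites. FTO and ALKBH5 are dioxygenases that use iron and 2-oxoglutarate to take the methyl group off, and METTL16 is a separate methyltransferase with few known substrates. The best known of these is the transcript of MAT2A, the enzyme that makes S-adenosylmethionine, the methyl donor of all these writers. METTL16 methylates or binds hairpins at the end of that transcript.

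The data hold 48017861 counts in the overexpression library and 43190215 in the control library. IGF2BP3 itself had 6376 counts in the overexpression library and 2944 in the control library, 133 and 67.9 CPM (counts divided by the TMM-scaled library total, times 1e+06). The ratio was 1.96, with a 95% exact counting interval of 1.88 to 2.05. Transcripts from the vector and from the native gene cannot be told apart in these counts. IGF2BP3 has 1521 exon bases in common with MALSU1 on the opposite strand, 17.9% of its exon bases. MALSU1 had 2110 counts in the overexpression library and 1874 in the control library. Reads from that stretch cannot be told apart if the counting ignored strand. Of 10 epithelial markers, 8 were listed in the table used here and KRT18 alone reached 10 CPM. Their summed level was 107 CPM in the overexpression library and 109 CPM in the control library. Of 8 markers of serous ovarian carcinoma, 2 were listed, PAX8 and WFDC2, with a summed level of 0.669 and 0.739 CPM in the overexpression and control libraries. WFDC2 was at 0 in the overexpression library. No listed gene was at 0 in both libraries, so an unlisted marker may have had no counts or may be outside the annotation used. These cannot be told apart here. All 7 mesenchymal markers were listed, at 2231 CPM in sum in the overexpression library and 2257 CPM in the control library. VIM alone made up 2149 CPM of the sum in the overexpression library and 2175 CPM in the control library, and 4 of the 7 were below 10 CPM in both. In the same order of libraries, the 7 fibroblast markers summed to 9.13 and 10.4 CPM, the 5 listed of 6 leukocyte markers to 3.20 and 2.77 CPM, and the 1 listed of 4 endothelial markers to 0.0836 and 0 CPM, with each gene below 10 CPM. The epithelial and ovarian identity in the labels thus had little RNA of the listed markers in either library apart from KRT18. What part this plays in the values below was not tested.

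The METTL16 target sites in MAT2A are shown because they tie a writer to a transcript measured in the same libraries. In the principal MAT2A transcript of GENCODE release 29 (ENST00000306434, GRCh38, plus strand), the words TACAGAGAA and TACAGAAAA occurred 6 times, all in the 3′ UTR. They are given 5′ to 3′ with the searched word in capitals.
MAT2A site 1, chr2:85543802-85543831: tggcgtaggcTACAGAGAAgccttcaagct
MAT2A site 2, chr2:85544589-85544618: tgtgatgtcaTACAGAGAAgtcacagggca
MAT2A site 3, chr2:85544774-85544803: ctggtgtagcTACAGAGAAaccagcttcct
MAT2A site 4, chr2:85544889-85544918: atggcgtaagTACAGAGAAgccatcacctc
MAT2A site 5, chr2:85545004-85545033: caaggtgtccTACAGAAAAaccttgggtta
MAT2A site 6, chr2:85545112-85545141: gctggtgtggTACAGAGAAgccagcttgtt
At least 1 of these words was found in the principal transcripts of 8.82% of 11606 protein-coding genes past the count minimum. No other of these transcripts held as many as MAT2A, which alone makes up 0.00862% of them. Among the writers and erasers, METTL14 held 1 such word and the other 9 held none in their principal transcript.

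The promoters of RBM15 and ZC3H13 are shown because these were the members with the highest ratios. Each runs from 250 bases before to 50 bases after the RefSeq gene start (GRCh38.p14) and is written 5′ to 3′ on the strand of the gene. Capitals mark the CCAAT box (CCAAT), the GC box (GGGCGG) and the core ETS word (CCGGAAG), searched on both strands.
RBM15, chr1:110339127-110339426, plus strand: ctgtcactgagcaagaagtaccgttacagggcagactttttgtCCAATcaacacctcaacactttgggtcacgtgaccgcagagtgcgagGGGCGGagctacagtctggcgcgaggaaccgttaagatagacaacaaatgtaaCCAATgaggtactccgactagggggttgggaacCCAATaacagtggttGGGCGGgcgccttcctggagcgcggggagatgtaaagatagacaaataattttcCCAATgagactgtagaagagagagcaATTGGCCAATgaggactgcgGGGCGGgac
ZC3H13, chr13:46052697-46052996, minus strand: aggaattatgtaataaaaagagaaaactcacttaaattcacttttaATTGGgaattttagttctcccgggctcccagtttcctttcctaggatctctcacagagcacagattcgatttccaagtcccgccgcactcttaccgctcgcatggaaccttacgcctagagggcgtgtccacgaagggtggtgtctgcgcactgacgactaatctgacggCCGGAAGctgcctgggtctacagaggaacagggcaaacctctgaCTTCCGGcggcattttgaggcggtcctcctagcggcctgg
RBM15 held 6 CCAAT boxes, of which 2 lie back to back, and 3 GC boxes. At least that many CCAAT boxes were found in 0.136% of 27305 RefSeq promoters, and at least 1 in 35.7%. ZC3H13 held 1 CCAAT box and 2 ETS words, and at least as many ETS words were found in 1.88% of promoters. Of 9 members with a promoter in the table, 7 held a CCAAT box (35.7% of all promoters), 4 a GC box (44.6% of all promoters) and 4 an ETS word (10.7%). These shares are over all 27305 promoters, not only those of protein-coding genes past the count minimum, to which the members belong. The other 3 motifs searched are not marked in the printed sequences. They were the NRF1 word GCATGCGC in 2 members (3.27% of all promoters), the TATA box TATAAA in 1 (12.0%) and the E box CACGTG in 1 (7.43%), which is RBM15. These matches are descriptions of the letters and were not tested as binding sites, and no factor was measured at them.

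The writers and erasers were expressed in both libraries and differed little between them. None of the 10 was at least 1.5-fold different, where 1.66% of all 14157 genes past a minimum of 50 counts were. At least 1.1-fold higher with IGF2BP3 overexpression were RBM15 and ZC3H13, 2 of 10 members, against 20.4% of all genes in that direction. None was at least 1.1-fold lower, against 16.8% of all genes. These folds are on the scale of CPM plus 1. The median log2 ratio of the 10 members was 0.00, and that of all genes past the minimum was also 0.00. In all, 5 members were above 0 and 5 below, against 51.1% and 48.9% of all genes. The members spanned -0.06 to 0.24. The counting interval lay above 1-fold for VIRMA, ZC3H13 and RBM15, 3 of 10 members, against 22.8% of all genes, and below 1-fold for none, against 18.6%. With halved counts, which allow for both mates of a read pair having been counted, VIRMA, ZC3H13 and RBM15 were still above 1-fold, where 15.9% of all genes did, and none was below, where 10.9% were. At 1.1-fold, the count of higher members is near the share of all genes. Whether an interval clears 1-fold depends on the number of counts. The shares of intervals are over all genes past the minimum of 50 counts and are not matched to the members in depth. METTL14, the member with the fewest counts, had 1552 in the overexpression library and 1463 in the control library. Nothing is thus read from the number of members with an interval above 1-fold. In bulk RNA, fewer cells expressing a gene and less RNA per cell cannot be told apart.

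**Figure D1:**
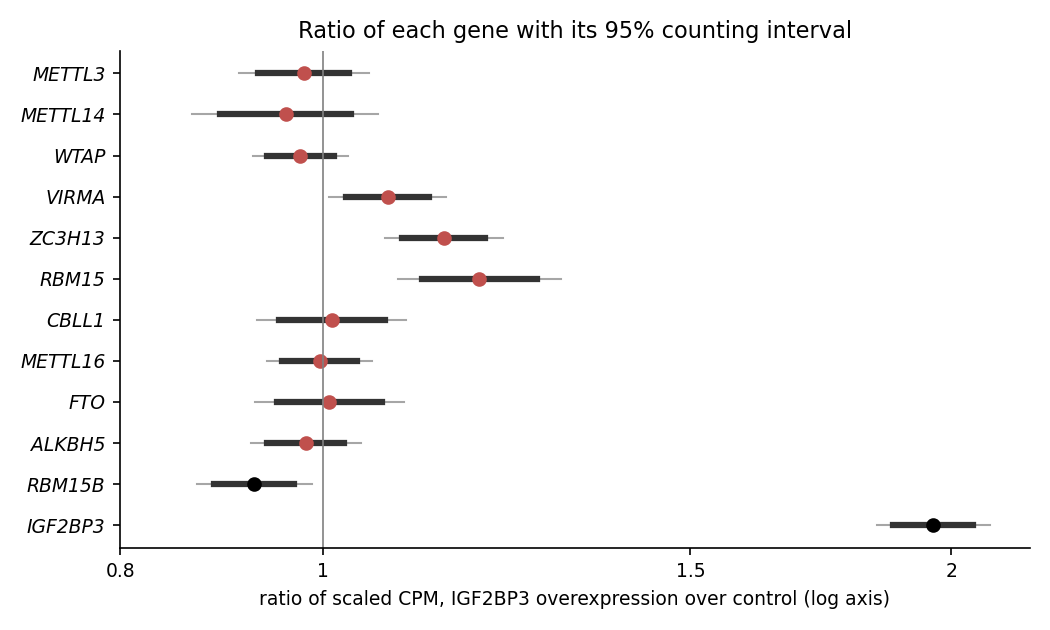
Ratio of TMM-scaled CPM, overexpression over control, on a log axis, for the 10 writers and erasers (red), RBM15B and IGF2BP3 (black). Thick bars are 95% exact counting intervals from counts as deposited and thin bars from halved counts. VIRMA, ZC3H13 and RBM15 lie above 1-fold and RBM15B below, and the intervals of the other 7 members include 1-fold.

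The catalytic dimer did not differ detectably between the libraries. METTL3 (ENSG00000165819; chromosome 14, 21498133 to 21511375, minus strand), the subunit that holds the active site, had 3203 counts and 66.9 CPM in the overexpression library, and 2960 counts and 68.3 CPM in the control library. Its ratio was 0.980 (0.932 to 1.03), an interval that includes 1-fold. METTL14 (ENSG00000145388; chromosome 4, 118685368 to 118715433, plus strand), its RNA-binding partner, had 1552 counts and 32.4 CPM in the overexpression library, and 1463 counts and 33.8 CPM in the control library. The ratio of 0.960 (0.894 to 1.03) was the lowest of the 10, and its interval includes 1-fold. The ratio of METTL3 divided by that of METTL14 was 1.02, with a counting interval of 0.935 to 1.11 by normal approximation on the log scale. With trends in GC content and length removed, the log2 ratio was -0.01 for METTL3 and -0.13 for METTL14, against -0.03 and -0.06 as reported.

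Among the subunits around the dimer, VIRMA, ZC3H13 and RBM15 had intervals above 1-fold, as did 22.8% of all genes. WTAP (ENSG00000146457; chromosome 6, 159725585 to 159756319, plus strand), which holds the dimer in nuclear speckles, had 5879 counts and 123 CPM in the overexpression library, against 5455 counts and 126 CPM in the control library. Its ratio was 0.976 (0.940 to 1.01). VIRMA (ENSG00000164944; chromosome 8, 94487693 to 94553529, minus strand), the large scaffold that directs methylation towards the 3′ end of transcripts, had 4075 counts and 85.1 CPM in the overexpression library, against 3434 counts and 79.3 CPM in the control library. Its ratio was 1.07 (1.03 to 1.12), and the lower bound from halved counts was 1.01. Once fitted trends in GC content and length over all genes were removed, its log2 ratio was 0.02, against 0.10 as reported.

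ZC3H13 (ENSG00000123200; chromosome 13, 45954465 to 46052759, minus strand), a zinc finger protein that helps keep the complex in the nucleus, had 4182 counts and 87.4 CPM in the overexpression library. In the control library it had 3313 counts and 76.5 CPM. The ratio was 1.14 (1.09 to 1.20). Of all genes, 24.0% had a log2 ratio at least as far from 0 as its 0.19, which became 0.12, under 1.1-fold, with those trends removed. RBM15 (ENSG00000162775; chromosome 1, 110338506 to 110346681, plus strand), an RNA-binding subunit that recruits the complex to specific transcripts, had 2272 counts and 47.5 CPM in the overexpression library, against 1730 counts and 39.9 CPM in the control library. At 1.19 (1.12 to 1.27), or 1.09 to 1.30 from halved counts, it had the highest ratio of the 10, and 15.4% of all genes lay at least as far from 0 as its log2 ratio of 0.24. CBLL1 (ENSG00000105879; chromosome 7, 107743697 to 107761667, plus strand), the ring-finger subunit also called HAKAI, had 2449 counts and 51.2 CPM in the overexpression library, against 2194 counts and 50.6 CPM in the control library. Its ratio was 1.01 (0.954 to 1.07).

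RBM15 has a paralog with an overlapping role in the complex, RBM15B, and the 2 genes stood on opposite sides of 1-fold. RBM15B had 3983 counts and 83.2 CPM in the overexpression library, against 3888 counts and 89.7 CPM in the control library, a ratio of 0.927 (0.887 to 0.970). The ratio of RBM15 divided by that of RBM15B was 1.28 (1.19 to 1.38 by the same approximation, and 1.15 to 1.43 with counts halved). The summed level of the pair was 131 CPM in the overexpression library and 129.7 CPM in the control library. RBM15 was at 0.809 times the FPKM (counts per kilobase of length, scaled to a library total of 1e+06) of RBM15B in the overexpression library and at 0.631 times in the control library.

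METTL16 (ENSG00000127804; chromosome 17, 2405562 to 2511891, minus strand) had 4857 counts and 101 CPM in the overexpression library, against 4411 counts and 102 CPM in the control library. Its ratio of 0.997 (0.957 to 1.04) was the closest to 1-fold of the 10. MAT2A, whose 6 sites are printed above, had 14728 counts and 308 CPM in the overexpression library, against 14028 counts and 324 CPM in the control library. Its ratio was 0.950 (0.929 to 0.973), lower in the overexpression library by less than 1.1-fold. MAT2A has 558 exon bases in common with GGCX on the opposite strand, which had 2532 counts in the overexpression library and 2224 in the control library.

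Of the erasers, FTO (ENSG00000140718; chromosome 16, 53701692 to 54158512, plus strand), which also acts on a related mark next to the cap, had 2475 counts and 51.7 CPM in the overexpression library. In the control library it had 2224 counts and 51.3 CPM. Its ratio was 1.01 (0.951 to 1.07). ALKBH5 (ENSG00000091542; chromosome 17, 18183078 to 18209954, plus strand), the nuclear m6A demethylase, had 4451 counts and 93.0 CPM in the overexpression library, against 4105 counts and 94.7 CPM in the control library. Its ratio was 0.982 (0.941 to 1.02). Neither eraser differed detectably at this depth. Summed over genes, the 8 writers were at 595 CPM in the overexpression library and 576 CPM in the control library, and the 2 erasers at 144.7 CPM in the overexpression library and 146.1 CPM in the control library.

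**Figure D2:**
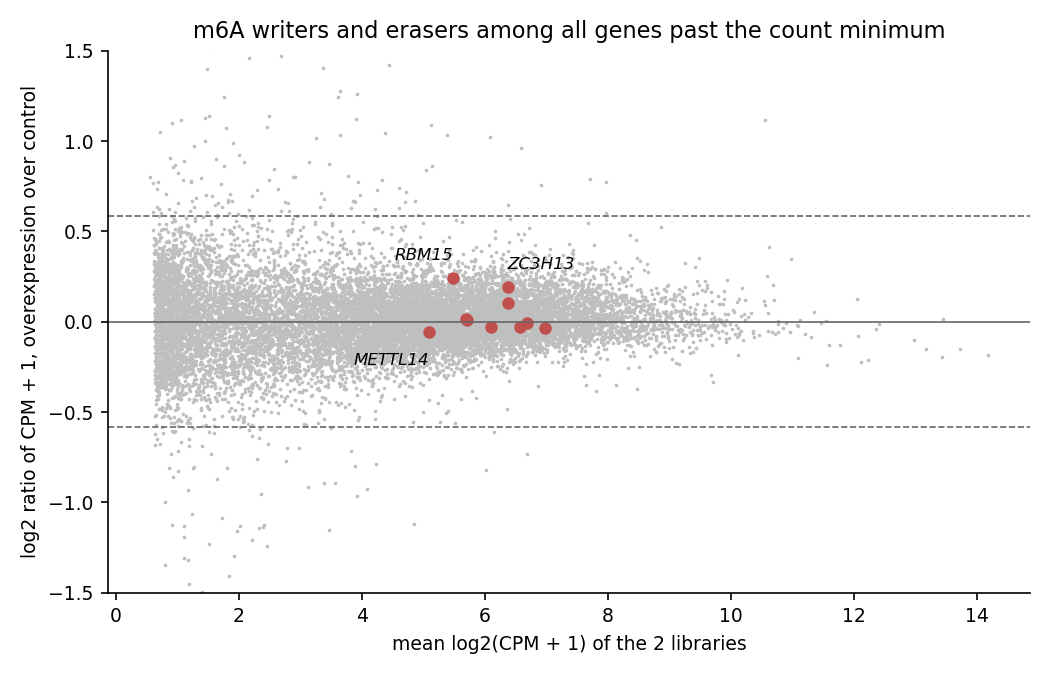
Overexpression over control as a log2 ratio of CPM plus 1, against the mean log2 of CPM plus 1 for 14157 genes past the count minimum (grey) with the 10 writers and erasers in red; 49 genes beyond 1.5 on the log2 scale are outside the axis, and dashed lines mark 1.5-fold. The members lie between -0.06 and 0.24, within the cloud of all genes.

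Levels between genes can be compared only per length. In deposited FPKM the order in the overexpression library was ALKBH5 at 25.7, WTAP at 19.1, METTL3 at 11.4, METTL16 at 11.3, RBM15 at 10.1, CBLL1 at 9.35, ZC3H13 at 8.48, VIRMA at 7.88, METTL14 at 4.73 and FTO at 2.41 FPKM. In the control library it was ALKBH5 at 26.4, WTAP at 19.7, METTL3 at 11.7, METTL16 at 11.4, CBLL1 at 9.31, RBM15 at 8.58, ZC3H13 at 7.47, VIRMA at 7.38, METTL14 at 4.95 and FTO at 2.41 FPKM. The order was thus shared except for RBM15, which stood above CBLL1 in the overexpression library and below it in the control library. The counting intervals of METTL3 and METTL16 overlapped in both libraries, as did those of RBM15 and CBLL1, and those of ZC3H13 and VIRMA overlapped in the control library. On counts as deposited, the intervals of all other neighbours in the order did not overlap. With halved counts, an alternative chosen after seeing the data, those of CBLL1 and ZC3H13 and those of ZC3H13 and VIRMA also overlapped in the overexpression library. Among all genes past the minimum, ALKBH5 stood above 88.4% in the overexpression library and 88.7% in the control library, while FTO stood above 38.5% in both.

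**Figure D3:**
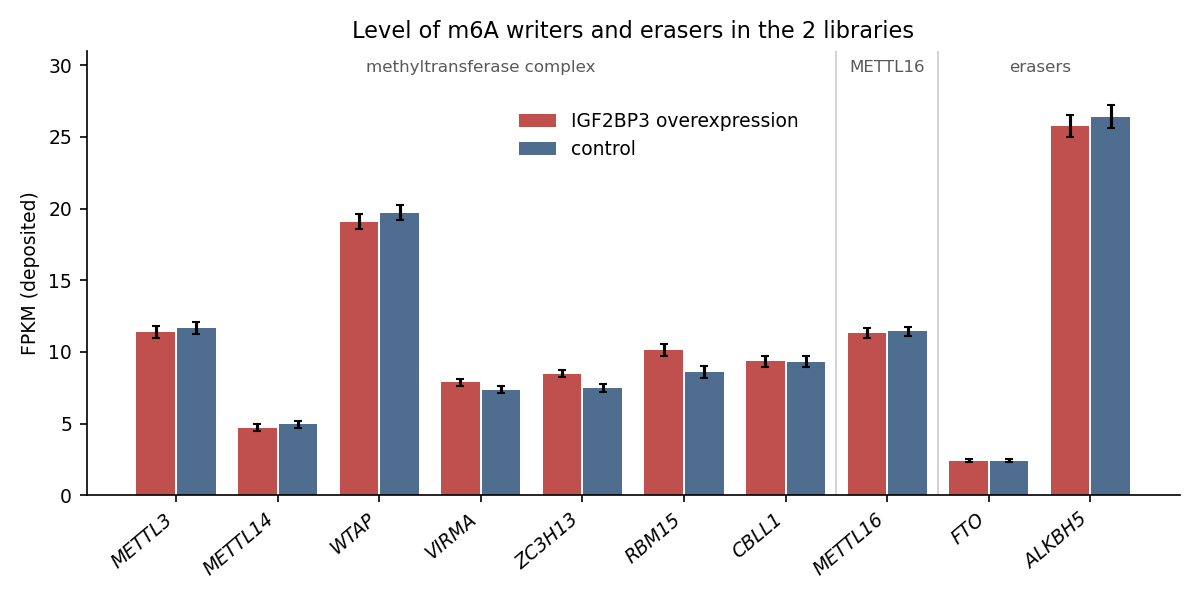
Deposited FPKM of the 10 members in the overexpression library (red) and the control library (blue), ordered by role; error bars are 95% exact Poisson counting intervals from counts as deposited. ALKBH5 is highest and FTO lowest in both libraries, and RBM15 shows the largest relative gap between the libraries.

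The order rests on the gene length that the FPKM used, which a count divided by its FPKM returns. That length was 5861 bases for METTL3, whose principal transcript (GENCODE release 29) has 2015, and 21379 bases for FTO, whose principal transcript has 11766. For METTL14 it was 6838 against 6669 bases. For METTL16, ZC3H13, RBM15 and FTO the length equalled the merged length of all annotated exons of the gene. METTL3 was at 2.41 times the FPKM of METTL14 in the overexpression library and at 2.36 times in the control library. Per length of the principal transcript, an alternative chosen after seeing the data, it was at 6.83 and 6.70 times in the same order of libraries. On that scale ALKBH5 at 33.7, WTAP at 33.5 and METTL3 at 33.1 had overlapping counting intervals in the overexpression library, where FTO remained lowest at 4.38. In the control library they were at 34.6, 34.5 and 34.0, again with overlapping intervals, and FTO was at 4.38. ALKBH5 was at 10.7 times the FPKM of FTO in the overexpression library and at 11.0 times in the control library, or at 7.70 and 7.90 times per principal transcript. The length does not enter a ratio between libraries of the same gene.

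**Figure D4:**
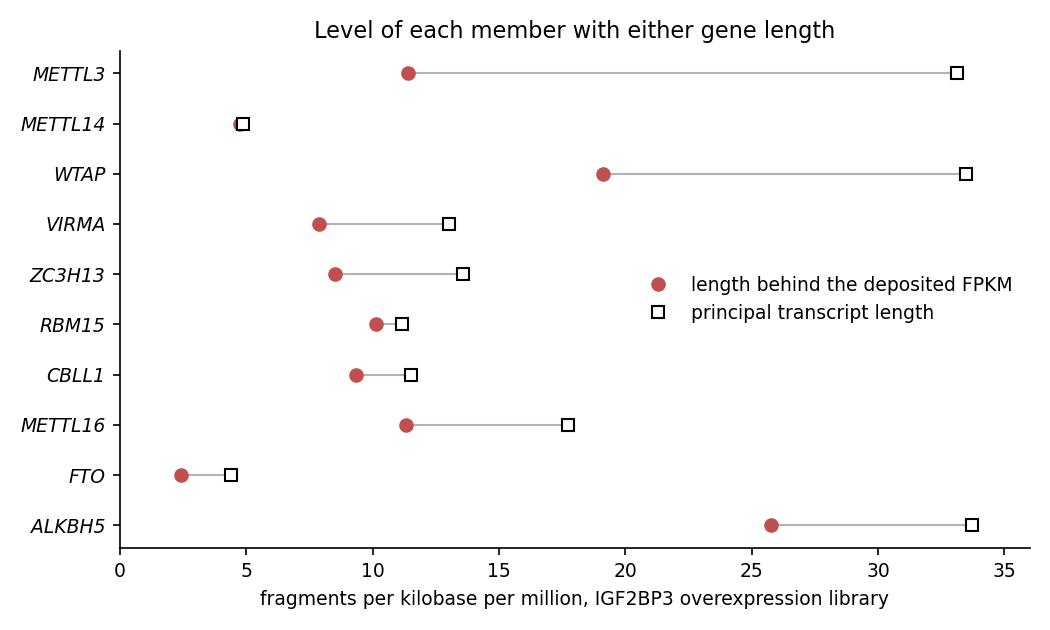
Level of each member in the overexpression library per kilobase and 1e+06 counts, with the length behind the deposited FPKM (red circles) and with the length of the principal transcript (open squares). METTL3 moves furthest in relative terms, to 33.1 per principal transcript against 11.4 FPKM, while METTL14 hardly moves.

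Several members share bases with other genes, and the sources used here do not give the strand setting of the counting. METTL3 has 388 exon bases in common with TOX4 on the opposite strand, 6.58% of its exon bases, and TOX4 had 3505 counts in the overexpression library and 3120 in the control library. RBM15 has 175 exon bases opposite RBM15-AS1, which had 18 and 16 counts in the same order. For ALKBH5 it was 357 bases opposite an antisense gene with 4 and 0 counts, and for CBLL1 333 bases opposite one with 33 and 30 counts. WTAP has 298 exon bases opposite SOD2, and 139 opposite a second gene ID of SOD2. Neither ID was listed in the table used here. Reads from these stretches cannot be told apart if the counting ignored strand. WTAP shares 4.94% of its 31-base words with other annotated genes and FTO 5.26%, the highest shares among the 10. IGF2BP3, outside the 10, shares 10.8%. Within 1 Mb, CBLL1 has HBP1 (195 counts in the overexpression library and 34 in the control library) and ALKBH5 has TOP3A (67 and 395 counts), both at least 2-fold different, while CBLL1 and ALKBH5 themselves were within 1.1-fold. The other 8 members have no such neighbour past the count minimum. Of 13818 genes with a position, 8% have one, and the 2 here are described with nothing read from their number.

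The transcripts of the members were not set apart by the short m6A consensus word GGACT, searched on the sense strand of principal transcripts. Their median was 0.882 words per kilobase, against 0.934 over 11606 protein-coding genes, and 5 of 10 members were above that value. METTL3 had 4 words and the highest density, 1.99 per kilobase, which 9.18% of genes reached. FTO had 5 words and the lowest, 0.425 per kilobase, which 83.5% of genes reached. A match says nothing of methylation, which was not measured in these libraries.

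Related genes of the pathway likewise differed little. Of 6 other genes for adenosine N6 methyltransferases and their subunits, 2 were above 0 and 4 below, with a median log2 ratio of -0.07. None was at least 1.1-fold higher and 1 was at least 1.1-fold lower. That gene was PCIF1, which methylates the adenosine next to the cap, at 0.890 (0.807 to 0.981). Next furthest from 0 was RBM15B. Among 7 other AlkB dioxygenases the median was -0.04. None of the 7 was at least 1.1-fold higher and 3 were at least 1.1-fold lower, against 20.4% and 16.8% of all genes. With GC and length trends removed this median was 0.00. ALKBH1, which acts on transfer RNA, had 1000 counts in the overexpression library and 1159 in the control library, a ratio of 0.781 (0.717 to 0.851). Of all genes, 6.99% had a log2 ratio at least as far from 0 as that of ALKBH1. ALKBH7, a mitochondrial family member, was at 0.865 (0.767 to 0.975). Halved counts bring the upper bounds of PCIF1 and ALKBH7 past 1-fold, to 1.03 and 1.02, and leave that of ALKBH1 at 0.881.

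Of 11 readers past the count minimum outside the IGF2BP family, 5 were above 0 and 6 below, with a median of -0.01 (0.01 with a minimum of 10 counts or none) and 1 at least 1.1-fold higher. This was YTHDC2, a helicase that reads m6A, at 1.13 (1.09 to 1.18), and YTHDF3, a cytoplasmic reader, followed with a log2 ratio of 0.13. In the IGF2BP family, IGF2BP2 was at 0.951 (0.916 to 0.987, an interval that includes 1-fold with halved counts) and IGF2BP1 had a log2 ratio of 0.02. Among 11 measured genes of the S-adenosylmethionine cycle the median was -0.02, with 2 at least 1.1-fold higher and 1 at least 1.1-fold lower. MTAP, which salvages methylthioadenosine, was at 1.12 (1.09 to 1.16), and MAT1A, the liver form of the enzyme, had 147 counts in the overexpression library and 184 in the control library, at 0.723 (0.578 to 0.903). For 9 genes that make or use 2-oxoglutarate, the co-substrate of the erasers, the median was 0.05, with 6 above 0, 1 at least 1.1-fold higher and none at least 1.1-fold lower. IDH1, the cytosolic isocitrate dehydrogenase, had 12829 counts in the overexpression library and 10028 in the control library, at 1.16 (1.13 to 1.19), and IDH3G, a mitochondrial subunit, was at 0.931 (0.879 to 0.985, again including 1-fold with halved counts). The shares of all genes past each fold, given above for the members, apply to these counts as well, and none of these lists held a gene at least 1.5-fold different other than IGF2BP3.

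**Figure D5:**
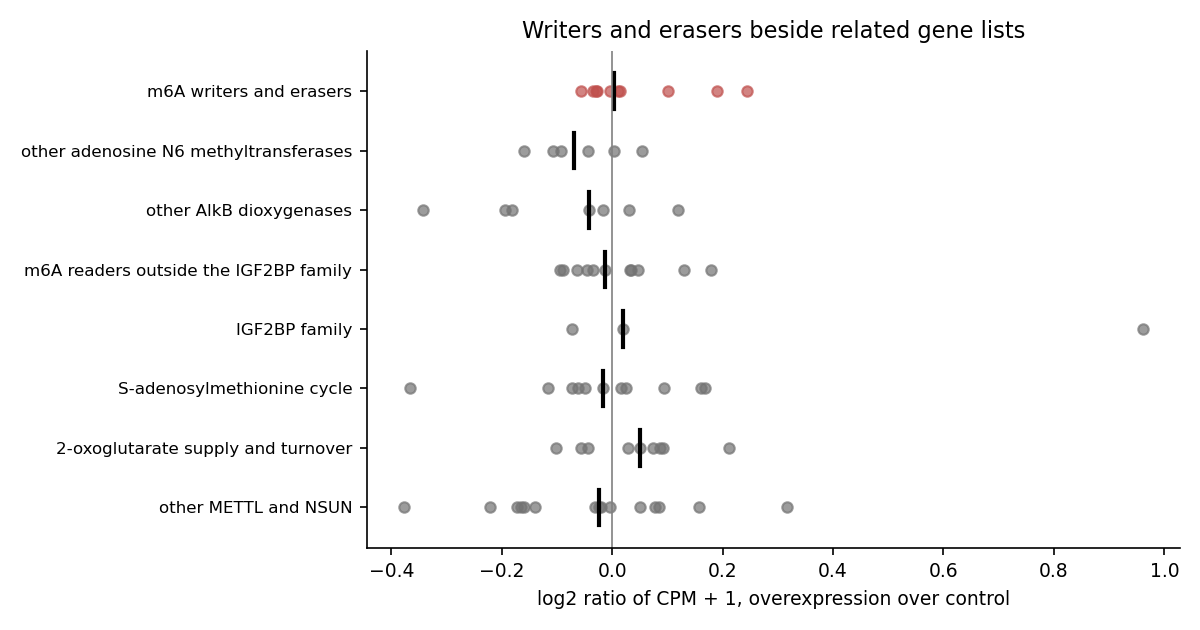
Overexpression over control as a log2 ratio of CPM plus 1, for each measured gene of the writers and erasers (red) and of 7 related lists (grey); black bars are list medians. The medians lie between -0.07 and 0.05, and IGF2BP3, at 0.96, is the single point far from the rest.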

How the data were processed

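The authors' table gives whole-number counts and FPKM per gene, per the file headers, for 1 overexpression and 1 control library. The authors' deposited table of log2 fold changes was not used for the ratios. Per the submitters' processing notes the genome was GRCh38. Which aligner, counter, strand setting and annotation were used is not given in the sources used here. Libraries were scaled by TMM (edgeR 4.0.16, R 4.3.3). The log2 ratio of CPM plus 1 was computed for the 14157 genes whose counts in both libraries sum to 50 or more. Each ratio has a 95% Clopper-Pearson interval, which covers counting error only; reads without molecular identifiers are not independent molecules. Even values made up 63.3% of counts between 1 and 20 in the overexpression library and 64.1% in the control library, so intervals were repeated with halved counts. Ratio intervals were tried on counts simulated as independent Poisson draws, and 95.5% of those of 14167 genes held the true ratio. The intervals assume that same model, so this checks the calculation only. It cannot show how well they cover the real counts. Positions and transcripts came from GENCODE release 29, which held 94.2% of the gene IDs, and promoters from RefSeq (GRCh38.p14), with 9 of 10 members matched. Trends were removed with splines in the GC content of the principal transcript and the length behind the FPKM. All members are named; other lists name the 2 genes furthest from 0. Members, lists and folds were chosen with earlier results of these data known. Python 3.11.15, numpy 2.4.6, pandas 2.3.3, scipy 1.17.1 and matplotlib 3.10.9 were used, with DESeq2 1.42.0 for 1 alternative.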

Additional observations from a re-analysis of the deposited data

How the results depend on the processing

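The 10 members were recomputed under 9 alternatives: scaling by library totals or DESeq2 size factors, FPKM plus 1, pseudocounts of 0.1 and 5 CPM, count minimums of 10, 200 or none, and removal of trends in GC content and gene length. Of 90 member values, 88 moved by less than the half-width of the counting interval. Those under the other count minimums could not move, since a minimum does not enter a member's own ratio. The 2 others were VIRMA, at 0.02, and ZC3H13, at 0.12, with trends removed, which left 1 member, RBM15, at least 1.1-fold higher. No member reached 1.5-fold and none was 1.1-fold lower under any of them. With trends removed CBLL1 stood at -0.03, FTO at -0.05 and ALKBH5 at 0.02, each on the other side of 0, and METTL16 stood at 0.00 with DESeq2 size factors. RBM15 ranged from 0.22 to 0.29. IGF2BP3 had a log2 ratio of 0.88 with FPKM plus 1 and 0.89 with trends removed. The METTL3 to METTL14 level was 6.83 per principal transcript length, since METTL3 is then divided by a shorter length. No paired analysis was possible because each group has 1 library. Depth is 1 limit on what these ratios show: the interval of METTL14, the member with the fewest counts, spans 0.894 to 1.03. That interval holds counting error only. Variation between cultures or library preparations is outside it and cannot be seen with 1 library per group.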

Other observations

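Methyltransferases of transfer and ribosomal RNA outside the adenosine N6 mark were also read, since several share the METTL fold. The list of METTL and NSUN genes also holds TRDMT1 and the subunit WDR4. Of its 15 measured genes, 5 were above 0 and 10 below, with a median log2 ratio of -0.02. With IGF2BP3 overexpression 2 of these were higher by 1.1-fold or more and 6 lower by 1.1-fold or more, against 20.4% and 16.8% of all genes. NSUN3, which modifies mitochondrial transfer RNA, had 2038 counts in the overexpression library and 1473 in the control library, a ratio of 1.25 (1.17 to 1.34). NOP2, a nucleolar methyltransferase of ribosomal RNA, had 40 counts in the overexpression library and 60 in the control library, at 0.604 (0.394 to 0.915), and its interval from halved counts included 1-fold. METTL2A and METTL2B are near-identical copies, so the counts of each are uncertain: METTL2A had a log2 ratio of 0.05 and METTL2B one of -0.17.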
